A study of Mus musculus with 6 samples.

Results

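The NRF2 and glutathione defence genes are 9 genes of the antioxidant response of mice: Nfe2l2, Keap1, Gclc, Gclm, Gsr, Txnrd1, Srxn1, Hmox1 and Nqo1. Open chromatin near them was read from a table of 58172 regions from ATAC-seq, an assay that marks accessible DNA by where the Tn5 transposase can insert. A region was counted with a gene if the deposited table gave it that gene's symbol, or, where the table assigned no gene at all, if the nearest protein-coding start site of the table within 100 kb was that gene's. This gave 27 regions, 12 by the deposited annotation and 15 by distance. They belong to 8 of the 9 genes. Txnrd1 is listed as the gene of no region, and its locus is described separately. The samples were mouse lung endothelial cells. By their labels, 3 libraries were CSE-KO and Cre-positive, and 3 were WT and Cre-negative. CSE is cystathionine gamma-lyase, the enzyme encoded by Cth, and KO stands for its knockout. The labels do not say in which cells of the mice the gene was lost. The CSE-KO libraries all carry Cre and the WT libraries all lack it, so Cre and the loss of the enzyme cannot be told apart. The sources used here do not give the promoter that drives Cre, the age of the mice or whether each library is a separate animal. The p-values therefore measure only the spread between these samples, which may be technical.

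NRF2, the product of Nfe2l2, is a transcription factor that pairs with small MAF proteins and binds antioxidant response elements. KEAP1 is the adaptor that presents NRF2 to a CUL3 ubiquitin ligase, and modification of its cysteines by electrophiles lets NRF2 accumulate. Its target genes make and recycle glutathione, drive the thioredoxin system and degrade haem and quinones. Glutathione contains cysteine, the amino acid that cystathionine gamma-lyase makes from cystathionine.

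The sequence just before the start sites was examined because it is where the antioxidant response element could lie under the open region of each promoter. RefSeq windows (build GRCm38.p6, which is mm10) from 250 bases before to 50 bases after a start site were at hand for 6 of the 9 genes, in 8 windows, since Txnrd1 has 3. Each was searched on both strands for the core of the antioxidant response element, TGACNNNGC, and for TGANTCAGC, an AP-1 site (TGANTCA) followed by GC. The first occurs in 12.4% of 32851 windows of this kind and the second in 1.19%. Some strings fit both motifs. The 4 windows with a match are shown on the strand of the gene, 5' to 3', with matches in capitals. They are chr2:75704614-75704913 (minus strand), chr3:122245307-122245606 (plus), chr2:152105274-152105573 (plus) and chr10:82858956-82859255 (plus).
Nfe2l2: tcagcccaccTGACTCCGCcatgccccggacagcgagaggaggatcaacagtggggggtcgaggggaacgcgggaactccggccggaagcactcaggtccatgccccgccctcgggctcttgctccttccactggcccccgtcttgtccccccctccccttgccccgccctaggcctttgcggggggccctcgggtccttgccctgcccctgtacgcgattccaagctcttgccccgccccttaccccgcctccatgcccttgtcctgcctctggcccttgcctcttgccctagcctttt
Gclm: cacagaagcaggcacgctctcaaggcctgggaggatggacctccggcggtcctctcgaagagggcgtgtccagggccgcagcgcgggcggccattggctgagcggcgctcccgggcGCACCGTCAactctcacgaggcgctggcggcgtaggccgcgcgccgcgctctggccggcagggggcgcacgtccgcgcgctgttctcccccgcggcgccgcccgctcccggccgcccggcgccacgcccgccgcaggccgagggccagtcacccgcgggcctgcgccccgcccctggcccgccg
Srxn1: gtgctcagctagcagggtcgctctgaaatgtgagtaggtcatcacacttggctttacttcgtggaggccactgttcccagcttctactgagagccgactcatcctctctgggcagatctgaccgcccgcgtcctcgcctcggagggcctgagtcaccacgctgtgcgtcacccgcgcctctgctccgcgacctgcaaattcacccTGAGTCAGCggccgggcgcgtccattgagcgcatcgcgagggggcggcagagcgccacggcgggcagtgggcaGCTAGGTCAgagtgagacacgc
Txnrd1: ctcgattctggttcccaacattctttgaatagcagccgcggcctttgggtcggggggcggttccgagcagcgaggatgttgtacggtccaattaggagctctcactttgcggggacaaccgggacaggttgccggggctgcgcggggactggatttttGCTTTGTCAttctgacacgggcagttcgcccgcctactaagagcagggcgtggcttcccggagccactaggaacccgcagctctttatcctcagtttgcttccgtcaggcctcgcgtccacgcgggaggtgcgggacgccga

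The Nfe2l2 window holds TGACTCCGC, whose first base lies 240 bases before the start. The Gclm window holds TGACGGTGC on the opposite strand, 134 bases before the start. The Srxn1 window holds TGAGTCAGC 45 bases before the start and TGACCTAGC on the opposite strand 28 bases after it. The Txnrd1 window holds TGACAAAGC on the opposite strand, 92 bases before the start. Each of these 4 windows lies wholly inside an open region of the table. The windows of Nqo1 and Keap1 and the other Txnrd1 windows held neither motif, which says only that these letters are not in these bases. The member windows had a median GC content of 57.5%, against 52.7% for all windows, and the Gclm window, with 79.7% GC and 48 CpG dinucleotides, was richer in GC than 98.8% of them.

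The region at the start of the targeted gene, Cth, had 11, 6 and 2 in CSE-KO libraries, against 195, 157 and 167 in WT libraries, so no library went against its label there. The values are the authors' normalized whole numbers per region and have no unit of their own. They summed to between 5437296 and 5547417 in CSE-KO libraries and between 5242490 and 5368491 in WT libraries. Up to 100, the CSE-KO columns skip 35 to 39 whole numbers, so 1 read was worth an estimated 1.54 to 1.64 units there. The WT columns skip none, so 1 read was worth at most about 1 unit. The SD between libraries of a group, pooled over regions, was 0.48 in CSE-KO and 0.31 in WT on the log2 scale. Endothelial markers had an open region at 8 of 9 genes, summed over promoters to 1072 to 1184 in CSE-KO and 907 to 1016 in WT. They did not move together: the promoters of Kdr, Ramp2 and Tek were called higher in CSE-KO and those of Tie1 and Egfl7 lower. Of the 51 endothelial regions 4 were called higher and 14 lower (median log2 change -0.44). These are 7.84% and 27.5%, against 7.7% and 9.6% of all tested regions. Of the markers of other cells, 4 of 7 epithelial, 3 of 7 leukocyte and 5 of 7 mural and fibroblast genes had a region. Sftpc, Sftpb, Nkx2-1, Ptprc, Cd3e, Csf1r, Itgam, Rgs5 and Tcf21 had none under their symbols, nor did the endothelial marker Pecam1. The promoter sums of these other cells were 54 to 80 in CSE-KO and 53 to 59 in WT for epithelial, 91 to 106 and 155 to 194 for the single leukocyte promoter (Spi1), and 228 to 263 and 154 to 159 for mural and fibroblast genes. In the last group the Col1a1 promoter was called higher (mean 133.7 in CSE-KO and 62.3 in WT), while those of Pdgfrb and Acta2 were not called. The epithelial sum joins promoters that went opposite ways. That of Epcam was called higher (mean 48.3 in CSE-KO and 25.3 in WT), and that of Hopx was not called (21.3 and 31.3). The Spi1 promoter was called lower. Of the 21 mural and fibroblast regions 1 was called higher and 3 lower, and of the 20 epithelial regions 2 higher and 2 lower. In all, 19% and 20% of these were called, near the 17.3% of all tested regions. Whether shifts in these cells play a part in the results was not tested. A lower value can come from fewer cells with an open site or from less opening in each cell, and these cannot be told apart.

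Accessibility at the 27 regions counted with the defence genes differed little between CSE-KO and WT. They do not include the Txnrd1 locus, described below, where a 2.44-fold fall and a 3.39-fold rise were among the calls. Of the 27 regions, 1 was called by limma (adjusted p under 0.05 over 58129 tested regions), a weak region in Gclc that was lower in CSE-KO, and none was called higher. Over all tested regions 17.3% were called, 7.7% higher and 9.6% lower. The median change over the 27 regions was 0.07 on the log2(value + 1) scale, CSE-KO minus WT, against -0.0041 over all tested regions. The median size of the change was 0.21, against 0.39. The 27 regions were also stronger, with a median mean value of 82.2 against 51.8, and no comparison at matched strength was made. As a share of a library's total value, the 27 regions together held 625, 720 and 665 ppm in CSE-KO libraries and 677, 640 and 709 ppm in WT libraries. The groups overlap, with the highest and the lowest of the 6 values both in CSE-KO. At an unadjusted p under 0.05 there were 5 member regions, or 18.5%, against 34.2% of all tested regions.

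**Figure D1:**
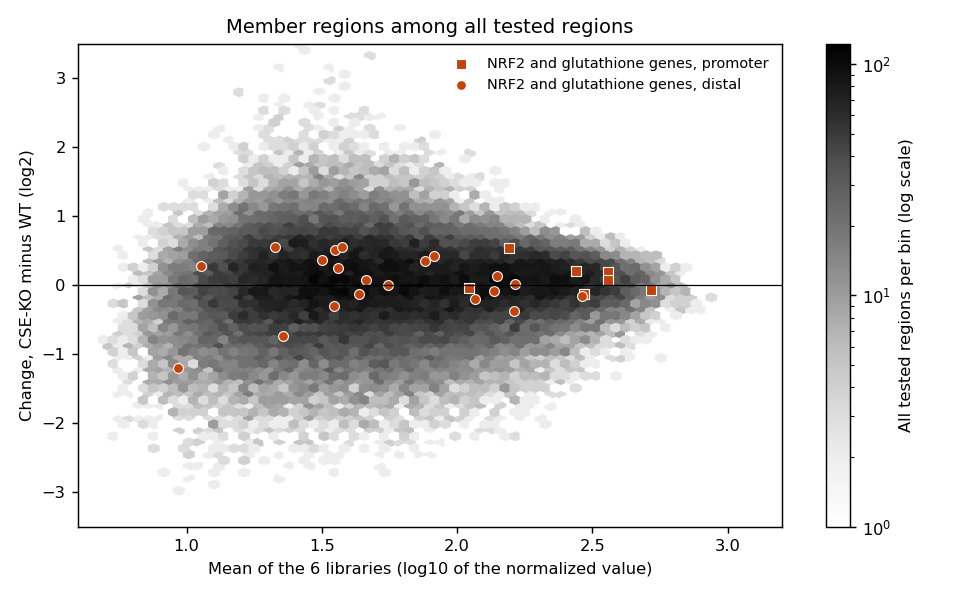
Change between CSE-KO and WT (log2, vertical axis) against the mean of the 6 libraries (log10 of the normalized value, horizontal axis). Grey bins count all tested regions, 78 of which lie outside the axes, and the 27 member regions are drawn on top as squares (promoters, within 1 kb of a start site) and circles (distal). The promoters have means from 111 to 519. Keap1 lies highest of them at 0.54, and the others lie between -0.12 and 0.21. The member with the lowest mean, a Srxn1 region, lies lowest at -1.19.

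The region nearest the start site was open in both groups at all 8 genes. A promoter region here is one whose centre lies within 1 kb of a start site by the authors' distance, which 7 of the genes have. These 7 had a median mean value of 296, against 170 for 10850 protein-coding promoters. By limma 0 of the 7 were called, against 8.52% of all promoter regions, and 0 had an unadjusted p under 0.05, against 23.9% of all promoter regions. In all 7 the groups overlapped, while they did not in 36% of all promoter regions. With limma's trend and robust options the Keap1 promoter was called (adjusted p = 0.0383).

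Nfe2l2, which encodes NRF2 itself, had the highest promoter values of the set. Its region (chr2:75703422-75705080, mm10, centred 390 bp from the start site and spanning it) had 484, 575 and 464 in CSE-KO libraries, against 528, 525 and 539 in WT libraries. The CSE-KO libraries lie on both sides of the WT libraries, which sit close together. The means were 508 ± 59.2 in CSE-KO and 531 ± 7.37 in WT (SD, n = 3 each), a log2 change of -0.07 with a 95% interval from -0.45 to 0.31 (limma, adjusted p = 0.797). With 1659 bp it was wider than 97.6% of protein-coding promoter regions, and its mean was higher than that of 98.1% of them. The only other region of the gene, upstream at 58.8 kb (chr2:75763177-75763631), had 131, 136 and 131 in CSE-KO libraries and 128, 139 and 155 in WT libraries. All CSE-KO values fall within the WT range, and the log2 change was -0.08 (95% interval -0.45 to 0.29).

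Among 9457 other protein-coding promoters with a mean of at least 50, the 3 whose values over the 6 libraries ran closest to those of Nfe2l2 were Abcc1, Odr4 and Sertad1. Likeness was the root mean square difference of log2(value + 1), each region centred on its own mean, and came to 0.017, 0.030 and 0.030. Abcc1 had 369, 447 and 351 in CSE-KO libraries and 400, 392 and 408 in WT libraries. Its log2 change was -0.05, so the likeness to Nfe2l2 lies mostly in the spread within the groups. Some promoters must rank closest, and shared regulation was not tested.

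Keap1, which encodes the cysteine sensor that holds NRF2 in check, had the widest interval of the promoters. Its region (chr9:21238493-21239346, inside the gene and 441 bp from the start) had 157, 228 and 164 in CSE-KO libraries, against 96, 123 and 162 in WT libraries. WT replicate 3 lies between CSE-KO replicates 1 and 3, and the other WT libraries lie below all of CSE-KO. The log2 change was 0.54, with a 95% interval from -0.06 to 1.13 (limma, adjusted p = 0.181), so the interval takes in no change and a rise of 2.19-fold. A weaker region 1.71 kb into the gene (chr9:21237524-21237786) had 44, 44 and 31 in CSE-KO and 35, 35 and 29 in WT, with a log2 change of 0.25 (95% interval -0.23 to 0.72).

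**Figure D2:**
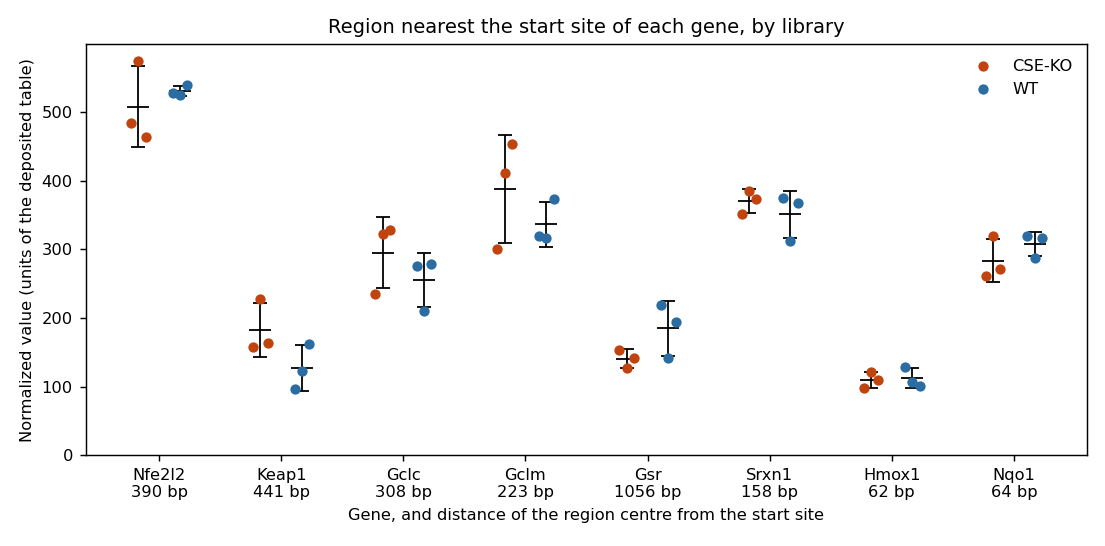
Normalized values of the region nearest the start site of each of the 8 genes, by library (dots, CSE-KO left and WT right of each pair), with mean and SD as black bars (n = 3 each). Distances of the region centres are given under the gene names. The groups overlap at each gene, and levels run from about 110 at Hmox1 to above 500 at Nfe2l2.

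Glutamate-cysteine ligase catalyses the first step of glutathione synthesis, joining glutamate to cysteine. Gclc encodes its catalytic subunit and Gclm the subunit that modifies its activity. The Gclc promoter (chr9:77754536-77755149, starting at the first bases of the gene) had 235, 322 and 328 in CSE-KO libraries and 276, 210 and 279 in WT libraries. CSE-KO replicate 1 falls between the WT values, and the other CSE-KO libraries are above all of WT. The log2 change was 0.21 (95% interval -0.29 to 0.70, adjusted p = 0.534 by limma). The Gclm promoter, the region over the window shown above (chr3:122245257-122246303), had 301, 411 and 453 in CSE-KO and 319, 316 and 374 in WT. It behaved alike, with CSE-KO replicate 1 below all of WT and the other CSE-KO libraries above, and a log2 change of 0.19 (95% interval -0.29 to 0.67, adjusted p = 0.555).

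The single called region lies 1.79 kb into Gclc (chr9:77756236-77756417, 182 bp wide). It had 16, 18 and 16 in CSE-KO libraries, against 25, 26 and 35 in WT libraries, so all CSE-KO values lie below all WT values. The log2 change was -0.73 ± 0.19 (SE), with a 95% interval from -1.18 to -0.29 and an adjusted p of 0.0384 by limma. In reads this is a small signal, since 1 read is worth about 1.6 units in CSE-KO. The call ended when any 1 of the 6 libraries was left out (adjusted p = 0.057 to 0.123) and with limma's trend and robust options (adjusted p = 0.111). Leaving out 1 library also cut the calls over all tested regions, from 10057 to between 3519 and 8922.

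Gclc has 6 regions in all. The strongest lies 3.71 kb upstream (chr9:77750331-77751323) and had 235, 323 and 267 in CSE-KO against 322, 275 and 314 in WT. Those groups overlap, and the log2 change was -0.15 (95% interval -0.59 to 0.28). A region downstream of the gene, 74.2 kb from the start, had 25, 23 and 28 in CSE-KO against 15, 21 and 15 in WT. Here all of CSE-KO lies above all of WT, but the change of 0.56 was not called (adjusted p = 0.0898). The remaining 2, at 71.1 kb downstream and 98.9 kb upstream, averaged 54.7 and 147 in CSE-KO and 56 and 134 in WT, with overlapping groups.

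All 3 distal regions of Gclm lie upstream of it. The one with the highest mean (46.3 kb, chr3:122199066-122199365) had 39, 38 and 49 in CSE-KO against 26, 31 and 30 in WT. That at 75.9 kb had 36, 29 and 43 in CSE-KO against 28, 27 and 27 in WT. In both, every CSE-KO library was above every WT library, but neither was called, with log2 changes of 0.51 (adjusted p = 0.0897) and 0.37 (adjusted p = 0.216). The third, at 48.0 kb, averaged 12.7 ± 3.51 in CSE-KO and 10 ± 1 in WT (SD, n = 3 each). The log2 changes of the 4 Gclm regions were all positive, 0.19 to 0.51, and none passed the test.

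Gsr encodes glutathione reductase, which returns oxidised glutathione to its reduced form with NADPH. Its strongest region (chr8:33653140-33654018) is centred 1056 bp from the start site of the deposited annotation, just outside the promoter limit, but 341 bp from the RefSeq start. It had 154, 127 and 141 in CSE-KO libraries, against 219, 141 and 194 in WT libraries. WT replicate 2 falls within the CSE-KO range and the other WT libraries lie above it. The log2 change was -0.37 (95% interval -0.87 to 0.13, adjusted p = 0.26 by limma). Regions 8.16 and 20.7 kb into the gene averaged 42.3 and 110 in CSE-KO and 44.7 and 124 in WT, and their groups overlapped. All 3 Gsr changes were negative, -0.37 to -0.12, and none passed the test.

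Srxn1 encodes sulfiredoxin, which repairs overoxidised peroxiredoxins. Its promoter, the region over the TGAGTCAGC match (chr2:152104716-152106000), had 351, 385 and 374 in CSE-KO libraries and 375, 312 and 367 in WT libraries. The groups are interleaved, with a log2 change of 0.08 (95% interval -0.30 to 0.46, adjusted p = 0.771). Just downstream of the gene, 6.6 kb from the start (chr2:152111996-152112237), values were 52, 47 and 36 in CSE-KO against 30, 29 and 31 in WT. Every CSE-KO library was above every WT library. This change of 0.55 was not called (adjusted p = 0.0842), but was without CSE-KO replicate 3 (adjusted p = 0.0436). A weak upstream region at 11.9 kb had 0, 9 and 13 in CSE-KO and 14, 7 and 13 in WT. The 0 of CSE-KO replicate 1 allows up to about 3 reads, or 4.92 units, and the 95% interval of the change, -3.38 to 0.99, says little at this depth.

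Hmox1 encodes haem oxygenase 1, which breaks haem down to biliverdin, iron and carbon monoxide. Its promoter (chr8:75093477-75093888, 412 bp wide) was the weakest of the 7, with 98, 121 and 110 in CSE-KO libraries and 129, 107 and 101 in WT libraries. The groups are interleaved and the log2 change was -0.03 (95% interval -0.45 to 0.39, adjusted p = 0.92 by limma). The region 4.11 kb upstream (chr8:75089242-75089788) was stronger than the promoter, with 160, 159 and 176 in CSE-KO and 158, 177 and 155 in WT. It was also interleaved, with a log2 change of 0.02 and the narrowest interval of the 27 regions, -0.35 to 0.38. Regions 8.64, 21.9 and 26.1 kb upstream averaged 85, 33.7 and 48 in CSE-KO and 66.7, 36.3 and 44.3 in WT. None of these passed the test, and the values at 21.9 kb ran from 13 to 51 within CSE-KO.

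Nqo1 encodes a quinone reductase that is widely used as a readout of NRF2. Its promoter (chr8:107402846-107403694) had 261, 319 and 271 in CSE-KO libraries and 319, 287 and 317 in WT libraries. CSE-KO replicate 2 equals the highest WT library, and the other CSE-KO libraries lie below all of WT. The log2 change was -0.12 (95% interval -0.51 to 0.27, adjusted p = 0.645 by limma). The region downstream of the gene, 16.7 kb from the start (chr8:107386139-107386844), had 105, 81 and 98 in CSE-KO against 73, 74 and 62 in WT. All of CSE-KO was above all of WT, and the change of 0.43 was not called (adjusted p = 0.137).

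**Figure D3:**
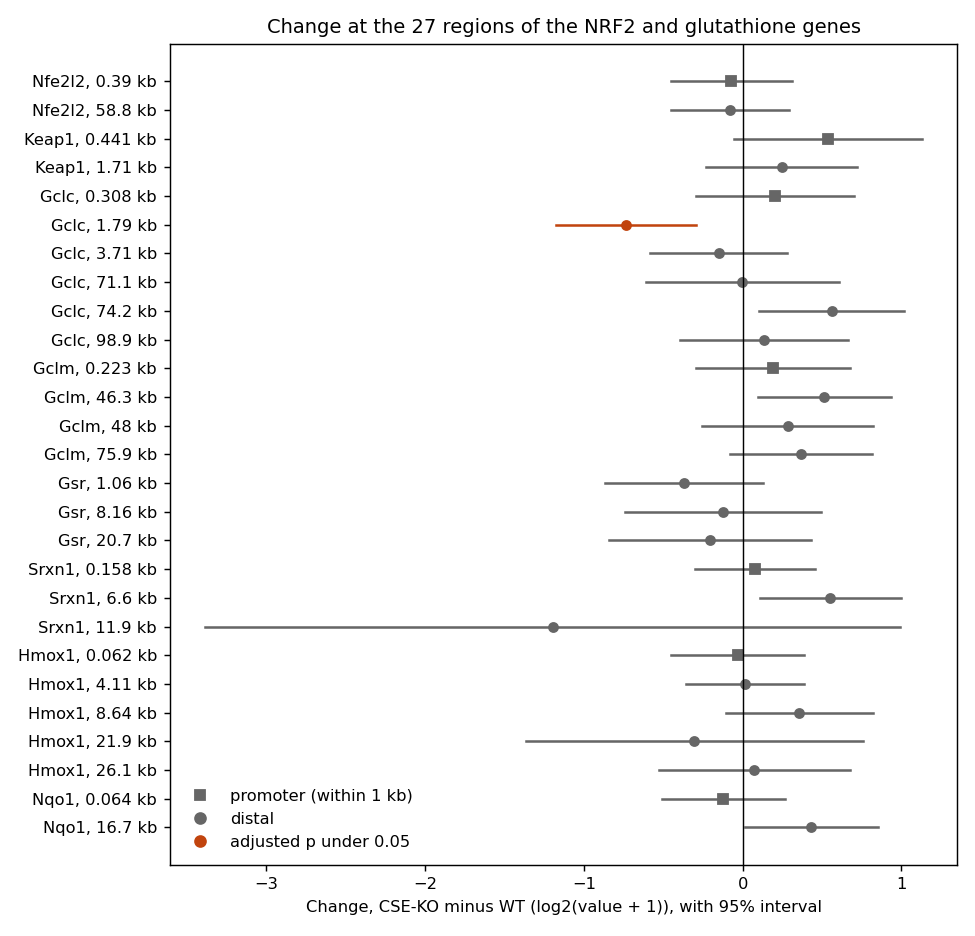
Change between CSE-KO and WT at each of the 27 regions (log2(value + 1), horizontal axis) with its 95% interval from limma, by gene and distance from the start site. Squares are promoters, circles are distal regions, and the called region, 1.79 kb into Gclc, is in red. Of the 7 promoter intervals all include 0, and the widest interval of the plot belongs to the weak Srxn1 region at 11.9 kb.

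The intervals bound how far the promoters could have moved in these samples. For the 6 promoters other than Keap1 they lay within 0.703-fold and 1.63-fold of WT. The intervals are per region and are not adjusted for their number. Groups that did not overlap were found at 6 of the 27 regions, or 22.2%, against 39.5% of all tested regions. All 6 are distal: CSE-KO was below WT at the called Gclc region, and above WT at the Gclc 74.2 kb, Gclm 46.3 kb, Gclm 75.9 kb, Srxn1 6.6 kb and Nqo1 16.7 kb regions. These 5 are singled out after their values were seen. Of the 20 distal regions 5% were called, against 19.9% of all distal regions.

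Whether the promoter of a gene moved apart from its distal regions was tested as a difference of differences. For each library the mean log2(value + 1) of the distal regions was taken from that of the promoter, over 7492 genes with both. Of these 11.5% were called, and 0 of the 7 members with both kinds of region were called by limma, also at an unadjusted p under 0.05. Nqo1 came nearest, with a promoter excess of 1.31, 1.96 and 1.46 in CSE-KO libraries and 2.11, 1.94 and 2.34 in WT libraries on the log2 scale. CSE-KO replicate 2 lies just above WT replicate 2, and the difference was -0.55 (95% interval -1.12 to 0.0099, adjusted p = 0.173). The other 6 genes had differences from -0.20 to 0.40, and the median over the 7 was 0.0097, against 0.17 over all genes tested.

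Txnrd1 encodes thioredoxin reductase 1, which keeps cytosolic thioredoxin reduced. Although it is named for no region, RefSeq places the gene at chr10:82833951-82897724, and 5 regions of the table lie in this span or within 5 kb of its ends. They fall outside the rule for the 27 regions and were looked up after the absence was seen. The region at the start site of the Txnrd1 window shown above (chr10:82858723-82859584) is assigned by the table to ENSMUSG00000112375, a long noncoding RNA on the other strand. It had 443, 400 and 425 in CSE-KO libraries, against 401, 379 and 373 in WT libraries. CSE-KO replicate 2 lies just under WT replicate 1, the only crossing of the groups, and the log2 change was 0.14 (95% interval -0.22 to 0.49, adjusted p = 0.566 by limma).

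A further start site of Txnrd1 lies under the next region (chr10:82860211-82860664), which the table gives to the same noncoding RNA. It had 51, 54 and 31 in CSE-KO, against 105, 100 and 123 in WT. All CSE-KO values lie far below the WT values, and the fall of 2.44-fold was called (log2 change -1.29 ± 0.25 (SE), adjusted p = 0.016), though not without WT replicate 1, 2 or 3 (adjusted p = 0.0534 to 0.0662). Just past the 3' end of the gene, 2102 bp beyond it, the region chr10:82899826-82900252 had 124, 106 and 107 in CSE-KO against 34, 31 and 32 in WT. This rise of 3.39-fold (log2 change 1.76 ± 0.16, adjusted p = 0.0027) is well outside the spread of either group and was called whichever library was left out. Its nearest protein-coding start site in the table is that of Chst11, 85.5 kb away. The neighbouring region 3657 bp beyond the end had 87, 81 and 95 in CSE-KO against 45, 50 and 33 in WT, a 2.06-fold rise (adjusted p = 0.017). It was no longer called with WT replicate 1 or 3 left out (adjusted p = 0.0576 and 0.0595). A weak region inside the gene averaged 15.7 ± 8.14 in CSE-KO and 13.7 ± 5.03 in WT.

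**Figure D4:**
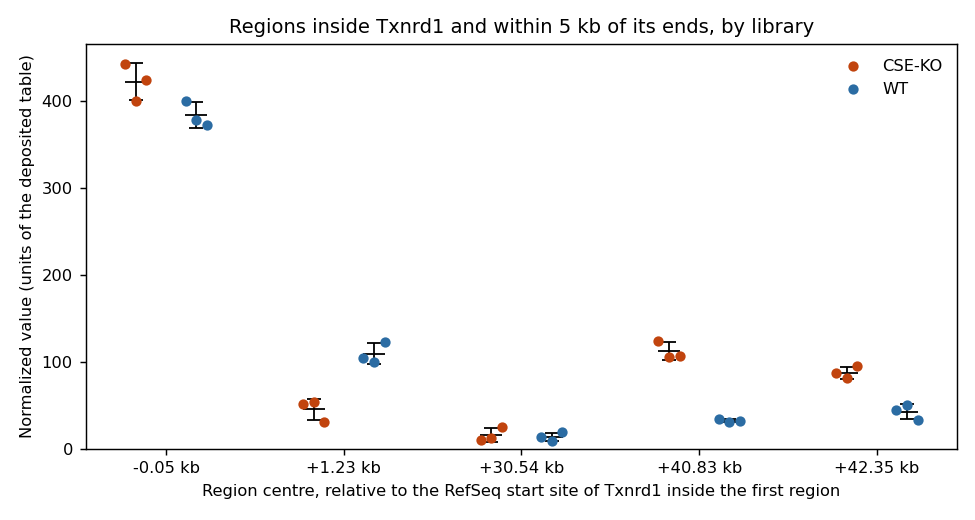
Normalized values by library at the 5 regions inside Txnrd1 or within 5 kb of its ends (dots, CSE-KO left and WT right of each pair, mean and SD as black bars, n = 3 each). The horizontal axis gives the position of each region's centre relative to the RefSeq start site inside the first region. The first region is alike in both groups, the second is lower in CSE-KO, and the last pair, past the 3' end, is higher.

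A wider list of 77 genes of the same pathway was described beside the members. It had 224 regions at 66 genes, of which 20 were called higher and 23 lower by limma, 19.2% in all and close to the 17.3% of all tested regions. The median change was 0.02. Its 56 promoter regions held 4 calls, all higher, or 7.14%, against 8.52% of all promoter regions (5.23% higher and 3.29% lower). At an unadjusted p under 0.05 there were 10, or 17.9%, against 23.9% of all promoter regions. Of its 168 distal regions 16 were called higher and 23 lower, against 8.43% and 11.5% of all distal regions. The 4 promoters were those of Chac1, Gss, Taldo1 and Cbr3, with Gss and Taldo1 chosen after their values were seen. Gss encodes glutathione synthetase, which completes glutathione after the ligase, and its promoter averaged 245 in CSE-KO and 154 in WT (log2 change 0.66, adjusted p = 0.0393). That of Taldo1, a pentose phosphate enzyme, averaged 404 in CSE-KO and 230.3 in WT (log2 change 0.81, adjusted p = 0.0205). The Gss call ended with any library but CSE-KO replicate 1 left out (adjusted p = 0.0613 to 0.127), and the Taldo1 promoter call without WT replicate 1, 2 or 3 (adjusted p = 0.0503 to 0.084). The count of called regions was 16, 18 and 17 without WT replicate 1, 2 and 3. Over all tested regions it fell from 10057 to 3602, 3684 and 3519, so such losses are not particular to this list.

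The counts by role that follow are to be read beside the 7.7% higher and 9.6% lower of all tested regions. Those at an unadjusted p under 0.05 by limma are to be read beside 34.2% of all tested regions. Where a named gene has further called regions, these are given too and were chosen after their values were seen. Regulators of NRF2 held 4 regions called higher and 10 lower of 57. They include the small MAF partners, the BACH repressors that compete for the same elements, and Sqstm1, which encodes a scaffold that can trap KEAP1. The region 12.3 kb from Sqstm1 had 136, 104 and 148 in CSE-KO against 44, 38 and 33 in WT, a 3.3-fold rise (adjusted p = 0.00465). Near Bach1, at 26 kb, values were 121, 126 and 135 in CSE-KO against 41, 42 and 33 in WT, a 3.25-fold rise (adjusted p = 0.00317). A region 4.95 kb from Maff fell by 4.09-fold, to 69, 75 and 74 in CSE-KO against 294, 296 and 311 in WT. In all 3 the groups lie far apart, and the calls held whichever library was left out. Bach1 and Maff each had a stronger region that was called lower. That of Bach1 at 37.6 kb had 188, 190 and 190 in CSE-KO against 380, 342 and 344 in WT (1.87-fold lower, adjusted p = 0.0108, not called without WT replicate 1, adjusted p = 0.0517). That of Maff at 22.4 kb had 369, 282 and 277 in CSE-KO against 572, 549 and 546 in WT (1.81-fold lower, adjusted p = 0.0207), with the call lost when WT replicate 1, 2 or 3 was left out (adjusted p = 0.0737 to 0.0789). The regions near Bach1 thus moved in both directions.

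Genes of glutathione supply and breakdown had 4 regions higher and 4 lower of 27. The Chac1 promoter, of a glutathione-degrading enzyme, had 247, 247 and 246 in CSE-KO against 109, 113 and 111 in WT (2.21-fold higher, adjusted p = 0.00557). Near Slc7a11, which encodes the cystine importer xCT, a region at 45.8 kb had 33, 35 and 52 in CSE-KO against 14, 11 and 13 in WT. The other 2 called Slc7a11 regions were stronger and lower in CSE-KO, at 9.21 kb with 96, 118 and 87 in CSE-KO against 203, 206 and 186 in WT (adjusted p = 0.0136) and at 61.2 kb with 129, 142 and 162 in CSE-KO against 206, 270 and 238 in WT (adjusted p = 0.0384). Distal Chac1 regions also went both ways, averaging 43 in CSE-KO and 9 in WT at 7.23 kb (adjusted p = 0.0214) and 13.7 in CSE-KO and 37.7 in WT at 57.3 kb (adjusted p = 0.0307). These 4 calls each ended with some libraries left out. They were WT replicate 1, 2 or 3 for Slc7a11 at 9.21 kb (adjusted p = 0.0511 to 0.0597) and any but CSE-KO replicate 3 at 61.2 kb (0.0729 to 0.132). For Chac1 they were CSE-KO replicate 2 and WT replicates 2 and 3 at 7.23 kb (0.0549 to 0.0783), and CSE-KO replicates 1 and 3 and WT replicates 1 and 3 at 57.3 kb (0.0711 to 0.106). Near Gss, 21.2 kb away, a weak region had 3, 3 and 3 in CSE-KO against 9, 9 and 17 in WT, which is about 2 reads in each CSE-KO library. In each of these regions the groups are apart, and the last was not called with limma's trend and robust options (adjusted p = 0.0829).

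Glutathione peroxidases and glutaredoxins had 1 region higher and 2 lower of 20. A region 14.2 kb from Gpx3, the secreted peroxidase, had 16, 23 and 18 in CSE-KO against 56, 66 and 42 in WT (2.77-fold lower, adjusted p = 0.00913). The other called Gpx3 region, at 4.13 kb, was also lower, averaging 117 in CSE-KO and 184 in WT (adjusted p = 0.0375), but not called with any library except CSE-KO replicate 1 left out (adjusted p = 0.072 to 0.129). A region 50.4 kb from Glrx, a glutaredoxin, rose 1.53-fold (log2 change 0.62, adjusted p = 0.0487). With 1 library left out the log2 change stayed between 0.52 and 0.71, but the call was lost without CSE-KO replicate 1 or 2 or WT replicate 1, 2 or 3 (adjusted p = 0.0816 to 0.155). Glutathione transferases and exporters had 0 higher and 2 lower of 32, with 11 at an unadjusted p under 0.05 by limma. Both lie near exporters of the ABC family, at 70.5 kb from Abcc4 (180.3 ± 1.15 in CSE-KO and 277 ± 15.6 in WT, SD, n = 3 each) and 60.7 kb from Abcc1 (19 ± 6.56 and 36.7 ± 4.73). The Abcc4 call ended without any 1 of the 6 libraries (adjusted p = 0.0558 to 0.121) and the Abcc1 call without any but CSE-KO replicate 1 (adjusted p = 0.0831 to 0.148).

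The thioredoxin and peroxiredoxin group had 2 regions higher and 3 lower of 26. A region 16.6 kb from Txn2, mitochondrial thioredoxin, had 75, 120 and 107 in CSE-KO against 291, 293 and 278 in WT (2.89-fold lower, adjusted p = 0.00664). One 19.2 kb from Txnrd2, the mitochondrial counterpart of Txnrd1, had 54, 43 and 41 in CSE-KO against 21, 18 and 21 in WT (2.23-fold higher, adjusted p = 0.00901). The neighbouring Txnrd2 region at 18.4 kb went the other way, with 47, 38 and 41 in CSE-KO against 87, 83 and 74 in WT (1.92-fold lower, adjusted p = 0.0132), as did that at 33.6 kb, with 193, 190 and 177 in CSE-KO against 305, 305 and 275 in WT (1.58-fold lower, adjusted p = 0.0296). With WT replicate 1 or 2 left out the 18.4 kb call was lost (adjusted p = 0.0596 and 0.0581), and the 33.6 kb call with any library but CSE-KO replicate 1 left out (adjusted p = 0.0508 to 0.106). A region 57.6 kb from Txnip, an inhibitor of thioredoxin, rose 1.83-fold to 590.3 ± 49.4 in CSE-KO against 321 ± 20.8 in WT, but was not called without WT replicate 1, 2 or 3 (adjusted p = 0.0521 to 0.0647).

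Haem and iron genes had 3 regions higher and 0 lower of 19 (6 at an unadjusted p under 0.05 by limma). The region 2.57 kb from Ftl1, ferritin light chain, had 425, 398 and 320 in CSE-KO against 98, 65 and 51 in WT. This was 5.44-fold higher (adjusted p = 0.00392 by limma) and called whichever library was left out (adjusted p = 0.00935 to 0.0252). Ferritin genes have pseudogene copies that can share their reads, and whether this affects the values near Ftl1 and Fth1 was not tested. The region 9.16 kb from Slc40a1, the iron exporter ferroportin, had 78, 92 and 59 in CSE-KO against 38, 39 and 40 in WT. That 5.71 kb from Fth1, ferritin heavy chain, had 57, 55 and 89 in CSE-KO against 20, 38 and 26 in WT. The Slc40a1 region was not called with WT replicate 1, 2 or 3 left out (adjusted p = 0.0785 to 0.085), and the Fth1 call without CSE-KO replicate 3 or WT replicate 1 or 3 (adjusted p = 0.0627 to 0.0992).

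Genes of NADPH supply had 3 regions higher and 2 lower of 10. The region 57.1 kb from Me1, malic enzyme 1, had 47, 25 and 36 in CSE-KO against 113, 104 and 95 in WT (2.92-fold lower, adjusted p = 0.0096). The other called Me1 region, at 47.7 kb, averaged 44 in CSE-KO and 74 in WT (adjusted p = 0.0484), and was not called with a pseudocount of 0.5 (adjusted p = 0.0503) or with any library but CSE-KO replicate 2 left out (adjusted p = 0.0909 to 0.152). The region 19.9 kb from Taldo1 had 140, 150 and 154 in CSE-KO against 74, 76 and 81 in WT. That 16.3 kb from Tkt, transketolase, rose 1.52-fold (adjusted p = 0.0441), with the call lost without CSE-KO replicate 1 or 2 or WT replicate 1, 2 or 3 (adjusted p = 0.0837 to 0.136) and with trend and robust (adjusted p = 0.078).

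Quinone and carbonyl detoxification had 3 regions higher and 0 lower of 20 (6 at an unadjusted p under 0.05 by limma). The promoter of Cbr3, a carbonyl reductase, had 186, 155 and 162 in CSE-KO against 77, 105 and 106 in WT (1.75-fold higher, adjusted p = 0.0316). Regions near Ugdh (UDP-glucose dehydrogenase, 19.0 kb) and Akr1a1 (an aldehyde reductase, 16.7 kb) rose 1.6-fold and 1.56-fold (adjusted p = 0.0316 and 0.0358). Each of the 3 calls ended without any WT replicate and without 2 of the 3 CSE-KO replicates (adjusted p = 0.0566 to 0.127). These were CSE-KO replicates 1 and 3 for Cbr3 and Ugdh, and 2 and 3 for Akr1a1. Superoxide dismutases and catalase had 0 of 13 called by limma (1 at an unadjusted p under 0.05). The strongest promoter of that group, of Sod1, had 350, 389 and 487 in CSE-KO and 410, 330 and 347 in WT, with overlapping groups (adjusted p = 0.585).

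**Figure D5:**
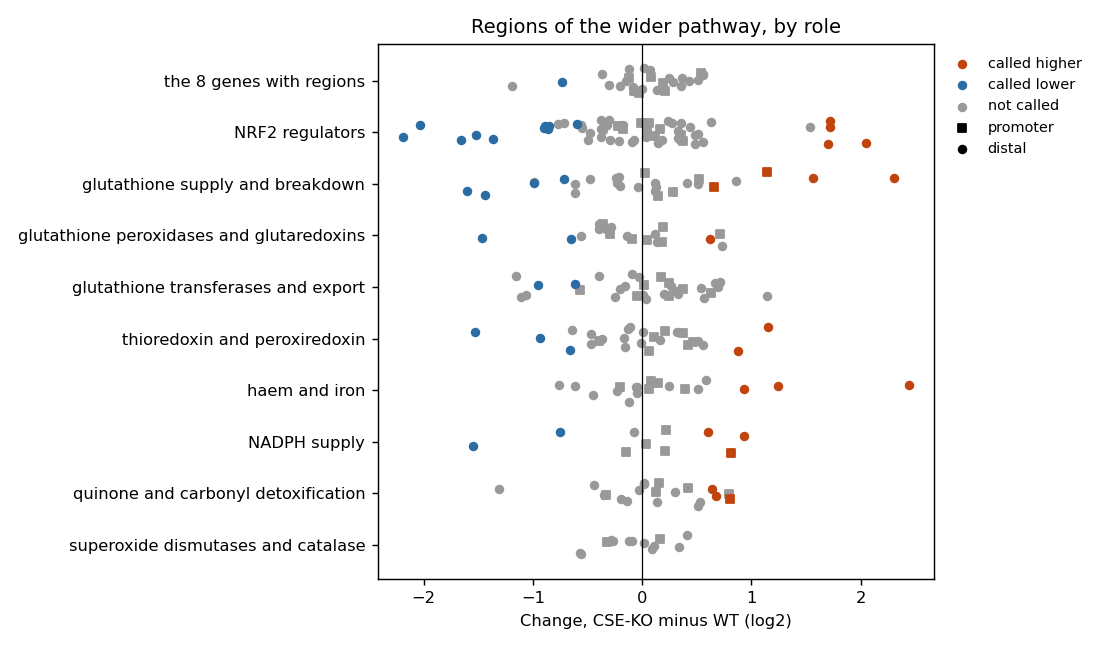
Change between CSE-KO and WT (log2, horizontal axis) at each region of the 8 members with regions (top row) and of the wider pathway list by role (other rows). Red marks regions called higher, blue regions called lower, grey the rest; squares are promoters and circles distal regions, and the vertical scatter within a row has no meaning. The member row holds 1 called region, and the called regions of the other rows lie on both sides of 0.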

How the data were processed

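ATAC-seq was run on 3 CSE-KO and 3 WT libraries of lung endothelial cells. Per the submitters' processing notes, the authors used DESeq2 1.26.0, Picard 3.1.1, STAR 2.7.3a and Trimmomatic 0.39 with mm10. The sources used here do not say what each tool did, how peaks were called or whether reads were shifted for Tn5. The values the authors deposited were taken as a score, not counts: they are whole numbers with near-equal totals, and the CSE-KO columns skip whole numbers at regular steps, as counts divided by a size factor and rounded would. A count model was therefore not run.

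Limma 3.58.1 in R 4.3.3 was fitted to log2(value + 1) for all 58129 regions with a mean of at least 5 (eBayes, trend and robust off), which all 27 member regions passed. P-values were adjusted by Benjamini-Hochberg at 0.05 over all tested regions, and log2 changes are CSE-KO minus WT. Folds come from the same log2(value + 1) fit and are understated for weak regions. The start site nearest to an unassigned region was sought among 12711 protein-coding genes of the table. Distance alone is no evidence that a region regulates the gene it was counted with. The fit was tested on simulated data.

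Named were all regions of the members (values in full for promoters, called regions, values at or under 5 and the highest distal region of each gene) and, in the wider list, up to 3 genes a role with a called region, by smallest p. The members and lists were chosen with earlier results of these data known. Alternatives were pseudocounts of 0.5 and 5, no filter or a mean of at least 20, TMM factors (computed without precision weights), quantile normalization, trend and robust, each library left out, a replicate block, the deposited annotation alone, 50 kb, and promoters within 2.5 kb.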

Additional observations from a re-analysis of the deposited data

How the results depend on the processing

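Of the 27 member regions 1 was called under each alternative, except that 0 were with the replicate block and 0 to 1 when 1 library was left out. The region was not always the same: with trend and robust it was the Keap1 promoter, and without CSE-KO replicate 3 the Srxn1 6.6 kb region. The wider list had 43 calls, against 70 with trend and robust, 23 with the replicate block, 7 of 83 regions with the deposited annotation alone (fewer regions) and 16 to 38 with 1 library left out. Calls over all tested regions moved the same way. They numbered 10057, against 15448 with trend and robust, 6013 with the replicate block and 3519 to 8922 with 1 library left out. No promoter minus distal difference of a member was called under any alternative. Same-numbered libraries did not deviate together (r = -0.0059, -0.011 and 0.01), so the replicate numbers were not taken as pairs, and each CSE-KO library correlated best with a WT library of another number, except replicate 3. The block ended the calls at Gclc 1.79 kb (adjusted p = 0.0822), the Txnrd1 region 3657 bp past the gene (0.051), the Gss, Taldo1 and Cbr3 promoters, the regions near Tkt, Glrx, Abcc4, Slc40a1, Fth1, Ugdh and Akr1a1, Chac1 at 7.23 and 57.3 kb, Slc7a11 at 61.2 kb, Txnrd2 at 33.6 kb, Maff at 22.4 kb, Gpx3 at 4.13 kb and Me1 at 47.7 kb (0.0521 to 0.102), and no other call that is named.

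Some changes of sign were found, with no call on either side. With 1 library left out the log2 change ran from -0.16 to 0.25 at Gclc 71.1 kb (0.0027 with TMM factors), -0.017 to 0.30 at Gclc 98.9 kb, -0.33 to 0.14 at Gsr 8.16 kb, -0.0049 to 0.13 at the Srxn1 promoter, -0.10 to 0.071 at the Hmox1 promoter, and -0.032 to 0.074, -0.69 to 0.25 and -0.15 to 0.29 at Hmox1 4.11, 21.9 and 26.1 kb. It ran from -0.24 to 0.39 at the weak region inside Txnrd1. The promoter minus distal difference ran from -0.21 to 0.18 at Hmox1, -0.10 to 0.67 at Srxn1 (-0.48 with a mean of at least 20) and -0.065 to 0.071 at Nfe2l2 (-0.0077 with quantile normalization). The cause was not tested.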
